A study of Mus musculus with 9 samples.

Results

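The CCAAT/enhancer-binding proteins (C/EBPs) are a family of transcription factors whose genes were followed here in mouse lung injured by high-stretch mechanical ventilation. The 6 genes carrying a Cebp symbol, Cebpa, Cebpb, Cebpd, Cebpe, Cebpg and Cebpz, were taken by symbol out of 27203 gene IDs in the expression table, and all 6 were found. Whole lungs of male C57BL/6 mice aged 6 to 8 weeks were sequenced in 3 groups of 3 animals each, with all animals anaesthetised with ketamine and xylazine and intubated. The control mice breathed on their own, without the ventilator. The VILI (ventilator-induced lung injury) mice were also given pancuronium, spent 4 hours on the ventilator with breaths of 20 ml/kg, and were killed either at once (VILI 0 hours) or 6 hours after ventilation ended (VILI 6 hours). No ventilated group received a protective tidal volume, so stretch, ventilation and the muscle relaxant cannot be told apart. When the sequenced control mice were killed after their procedure is not stated. Time since the procedure and the anaesthesia therefore cannot be told apart from group either. Levels are given as FPKM, the fragments of a transcript scaled by its length and by the size of the library, summed over the transcript rows of each gene. FPKM is a value per length, so levels of different genes can be set side by side, but the number of reads behind each value is not given.

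C/EBPs bind DNA as dimers through a basic leucine zipper (bZIP), in which the basic region touches the DNA and the zipper joins the partners. Cebpa is known for the maturation of airway and alveolar epithelium and of granulocytes. Cebpb and Cebpd are known as inducible factors of the acute-phase response downstream of IL-6, STAT3 and IL-1, and Cebpe directs the granule genes of maturing granulocytes. Cebpg has a zipper but no activation domain and works through partners. Cebpz carries the family symbol but is a CCAAT-binding factor of another kind.

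The coding sequence of the basic region is shown for the 5 bZIP members because it is the part of the protein they share. Each line holds 51 bases, 5′ to 3′ on the coding strand, from GENCODE M21 transcripts, with the 31 bases found at the same place in all 5 genes in capitals.
Cebpa: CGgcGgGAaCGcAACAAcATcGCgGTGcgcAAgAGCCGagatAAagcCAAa
Cebpb: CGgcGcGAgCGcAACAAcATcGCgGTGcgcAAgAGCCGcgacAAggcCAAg
Cebpd: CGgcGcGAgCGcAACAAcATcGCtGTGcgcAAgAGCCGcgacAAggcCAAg
Cebpe: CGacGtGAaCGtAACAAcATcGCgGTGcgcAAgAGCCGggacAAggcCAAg
Cebpg: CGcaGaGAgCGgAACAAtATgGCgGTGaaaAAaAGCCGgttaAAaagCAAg

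These stretches lie, on GRCm38, in exon 1 of Cebpa (chr7:35120283-35120333, plus strand), exon 1 of Cebpb (chr2:167689703-167689753, plus strand), exon 1 of Cebpd (chr16:15887913-15887963, plus strand), exon 2 of Cebpe (chr14:54710707-54710757, minus strand) and exon 2 of Cebpg (chr7:35050585-35050635, minus strand). Cebpb and Cebpd shared 50 of the 51 bases, the most of any pair. Cebpa and Cebpb shared 45, and Cebpg shared 33 or 34 with each of the others. Over the 64 residues that begin with the basic region, the protein sequences, translated from these transcripts, of Cebpa and Cebpb were 76.6% identical, those of Cebpb and Cebpd 65.6%, and those of Cebpg and the other members 39.1% to 46.9%. No match to the basic-region pattern was found in the 1052 residues of Cebpz, nor in the 168 residues of Ddit3 (CHOP), a C/EBP family protein under another symbol that forms dimers with the others. Since the pattern also missed Ddit3, a missing match by itself does not mark Cebpz off from the family.

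A promoter sequence was at hand for 3 of the 6 members (Cebpa, Cebpb and Cebpg; RefSeq, GRCm38.p6). That of Cebpb is shown because its transcript was among those that differed most from control. The 250 bases ahead of its start, chr2:167688665-167688914 on the plus strand, are given without capitals because no searched motif was found in them.
Cebpb promoter: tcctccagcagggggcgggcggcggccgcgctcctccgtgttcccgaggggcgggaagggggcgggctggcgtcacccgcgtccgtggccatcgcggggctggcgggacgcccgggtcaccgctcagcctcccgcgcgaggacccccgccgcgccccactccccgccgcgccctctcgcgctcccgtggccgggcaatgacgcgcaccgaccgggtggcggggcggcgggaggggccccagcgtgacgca

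G and C made up 81.6% of these bases, against a median of 52.4% over 32851 such windows and against 66.4% for Cebpa and 70.8% for Cebpg. Windows from 250 bases before to 50 after the start were searched on both strands. The motifs were TTGCNNAA and TTGCGCAA (C/EBP), TGATGCAA (C/EBP with ATF), TTCNNNGAA (STAT), TGACGTCA (CRE) and CCAAT, the second of which is a special case of the first. Of all windows, 10.8%, 0.183%, 0.895%, 8.30%, 1.79% and 37.4% held them, in that order. The single motif found among the 3 members was CCAAT, with 2 matches on the minus strand of the Cebpg window, at 89 and 28 bases before the start. An absent match says only that these letters are not in these windows.

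One library was more like control than like its own group. VILI 6 hours replicate 1 had a mean Spearman rho across genes of 0.978 with the control libraries, 0.971 with the VILI 0 hours libraries and 0.954 with the other VILI 6 hours libraries. Within groups, rho ran from 0.987 to 0.988 in control, from 0.978 to 0.984 at VILI 0 hours and from 0.944 to 0.973 at VILI 6 hours. VILI 6 hours replicate 3 also matched its group poorly, with a mean rho of 0.942 with control, 0.959 with VILI 0 hours and 0.958 with its own group. The tests of Cebpb, Cebpd, Cebpa and Cebpg at VILI 6 hours and the counts of each gene list at that time are given with and without VILI 6 hours replicate 1. List counts without replicate 3 are not given here. Marker genes of alveolar type 2 cells, among them Sftpc, were abundant in every library, at a summed level of 12480 to 15510 FPKM.

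Cebpd, an inducible acute-phase factor, and Cebpb, its partner in that response, were the members furthest above control. Mean Cebpd was 5.21-fold higher at VILI 0 hours and 3.99-fold higher at VILI 6 hours, and Cebpb 1.96-fold and 2.27-fold higher, on the log2(FPKM + 0.1) scale. Cebpg was 1.31-fold higher at VILI 0 hours, while Cebpa and Cebpz stayed within 1.16-fold of control at both times and Cebpe was close to 0 throughout. With all 9 libraries in 1 limma fit, no member reached a Benjamini-Hochberg adjusted p under 0.05, the threshold for a call used here, in any of the 3 comparisons. At an unadjusted limma P under 0.05, 3 members passed at VILI 0 hours (Cebpd, Cebpb and Cebpg), 2 at VILI 6 hours (Cebpd and Cebpb) and 0 between the VILI groups, out of 5 tested. The study also took P under 0.05, but applied it to transcripts and not to this fit of summed genes.

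Few of the 19378 genes tested were called: 0.284% at VILI 0 hours against control, 0.702% at VILI 6 hours against control and 0.0% between the VILI groups. At an unadjusted P under 0.05 the shares were 16.2%, 20.4% and 10.0%. Both comparisons with control use the same 3 control libraries. Without VILI 6 hours replicate 1, Cebpb and Cebpd were called against control at both times (limma adjusted p of 0.0447 and 0.00386 at VILI 0 hours, and of 0.00868 and 0.00134 at VILI 6 hours). In that fit, however, calls over all genes went up from 55 to 1343 at VILI 0 hours and from 136 to 4512 at VILI 6 hours. The shares of all genes at an unadjusted P under 0.05 in that fit were 8.98% higher and 14.2% lower at VILI 0 hours, 12.8% and 26.0% at VILI 6 hours, and 8.55% and 13.9% between the VILI groups, and list counts without this library are to be read against these.

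**Figure D1:**
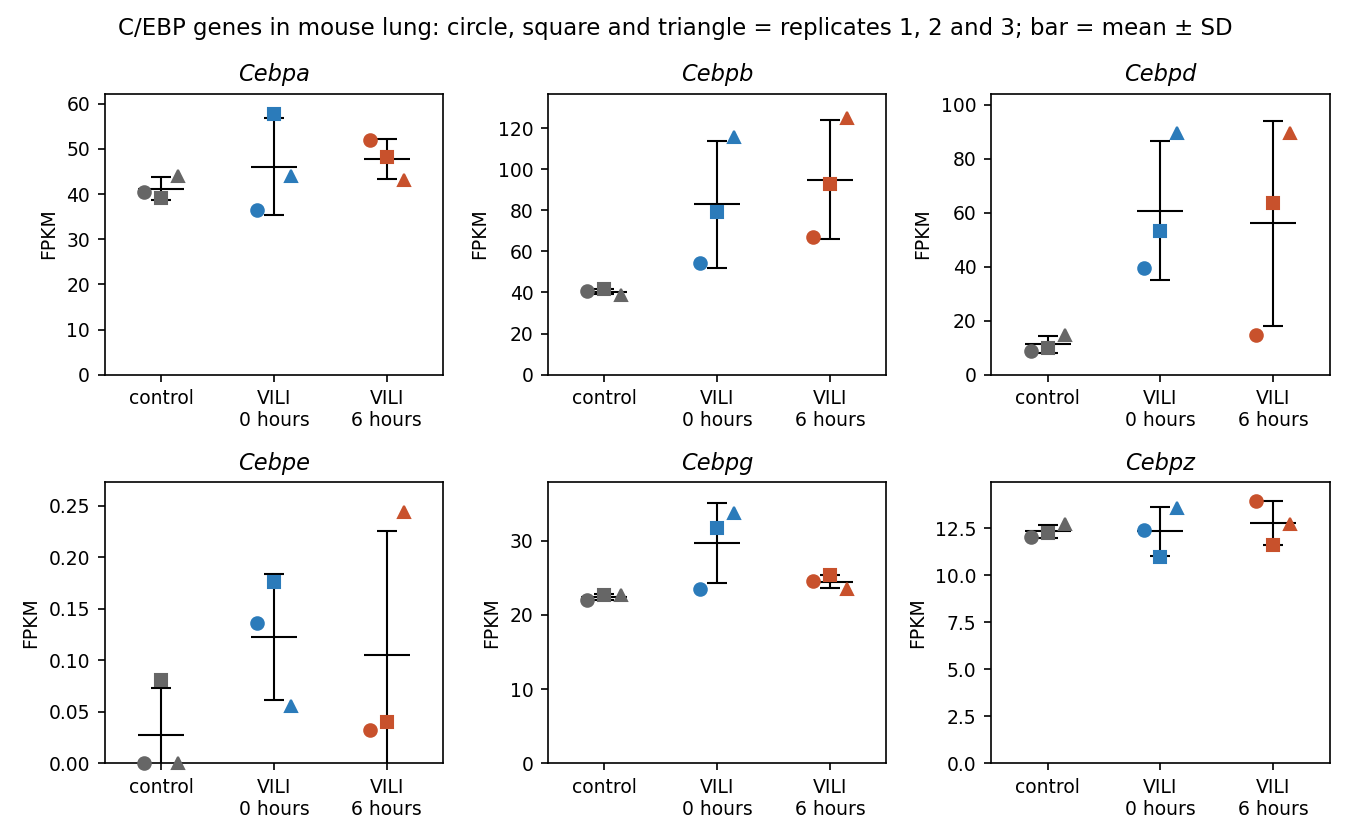
FPKM of the 6 C/EBP genes in each library (vertical axes start at 0 and differ between panels) by group, with circle, square and triangle for replicates 1, 2 and 3 and bars for mean ± SD. All VILI libraries lie above all control libraries for Cebpb, Cebpd and Cebpg, with VILI 6 hours replicate 1 at 14.9 FPKM of Cebpd just above the highest control library at 14.7.

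Among the inducible members, Cebpd (ENSMUSG00000071637; chr16:15887286-15891031, plus strand) was measured at 8.895, 9.96 and 14.7 FPKM in control replicates 1, 2 and 3. In the VILI 0 hours libraries the values were 39.6, 53.2 and 89.4, and at VILI 6 hours 14.9, 63.5 and 89.7. The VILI libraries all exceeded the control libraries, but VILI 6 hours replicate 1 did so by a narrow margin while replicates 2 and 3 stood with the VILI 0 hours libraries. Non-overlap in the higher direction was found in 12.0% of all genes tested at VILI 0 hours and in 9.64% at VILI 6 hours, and for 3 of the 6 members (Cebpb, Cebpd and Cebpg) at each time.

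Means of Cebpd were 11.2 ± 3.09 FPKM in control (SD, n = 3), 60.7 ± 25.8 at VILI 0 hours and 56.0 ± 38.0 at VILI 6 hours. The log2 fold change against control was 2.38 ± 0.58 (SE) at VILI 0 hours, with a 95% interval of 1.07 to 3.69, a limma P of 0.00253 and an adjusted p of 0.103. At VILI 6 hours it was 1.998 ± 0.58, with an interval of 0.68 to 3.31, a limma P of 0.00715 and an adjusted p of 0.124. The exact two-sided permutation test on FPKM gave p = 0.1 at each time, the smallest value that 3 against 3 libraries allow. In size, 0.392% of the genes tested had a higher log2 fold change than Cebpd at VILI 0 hours and 0.908% at VILI 6 hours. From control to VILI 0 hours the share of gene IDs with a higher mean level than Cebpd went from 22.5% to 3.00%, and at VILI 6 hours it was 3.37%. In bulk tissue a change in the number of cells of a type and a change in RNA per cell cannot be told apart.

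Cebpb (ENSMUSG00000056501; chr2:167688915-167690418, plus strand), which acts in macrophage activation and emergency granulocyte production, was far more abundant than Cebpd at baseline. Its control libraries lay close together at 40.8, 41.5 and 38.9 FPKM. The VILI 0 hours libraries were at 54.4, 78.9 and 116, and at VILI 6 hours 67.1, 92.7 and 125. Every VILI library was above every control library, and unlike for Cebpd this held for VILI 6 hours replicate 1 by a wide margin.

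Means of Cebpb were 40.4 ± 1.34 FPKM in control (SD, n = 3), 83.0 ± 30.9 at VILI 0 hours and 94.9 ± 28.9 at VILI 6 hours. The log2 fold change was 0.97 ± 0.28 at VILI 0 hours (95% interval 0.35 to 1.59, limma P 0.00601, adjusted p 0.139). The VILI 6 hours value was 1.18 ± 0.28 (0.57 to 1.80, limma P 0.00178, adjusted p 0.0811). The exact permutation p was 0.1 at each time. A higher log2 fold change was found in 3.63% of the genes tested at VILI 0 hours and in 3.59% at VILI 6 hours.

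**Figure D2:**
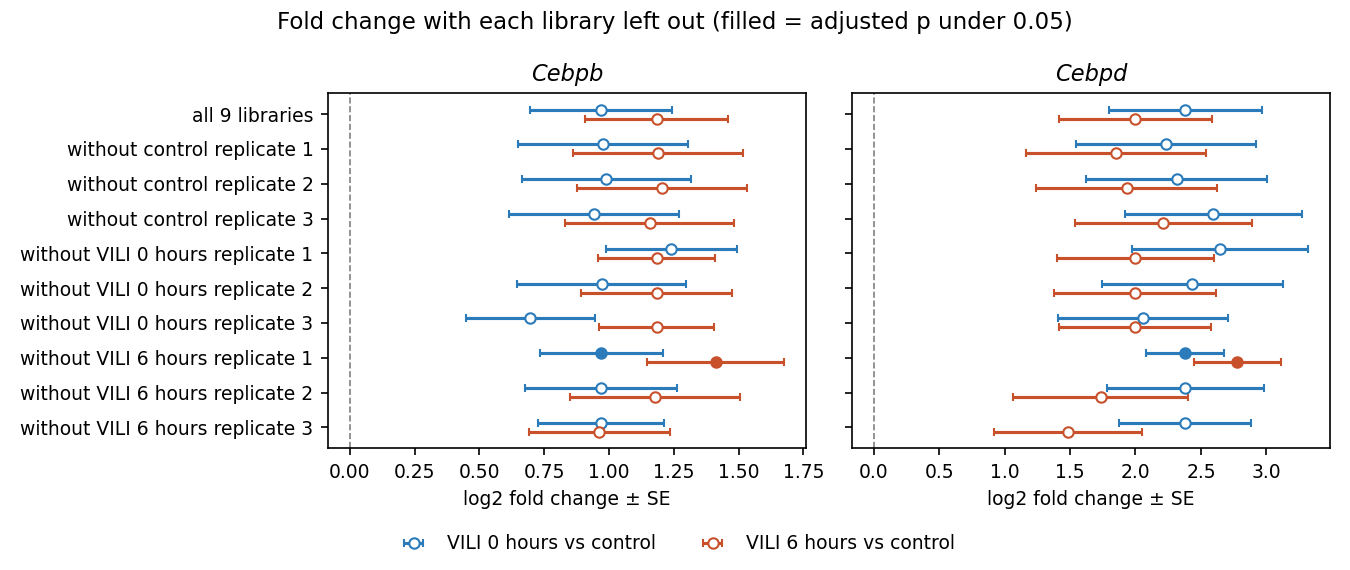
Log2 fold change ± SE (horizontal axes, FPKM + 0.1) of Cebpb and Cebpd against control at VILI 0 hours (blue) and VILI 6 hours (red), with all 9 libraries and with each library left out in turn; filled points have an adjusted p under 0.05. All estimates stay above 0, from 0.70 to 1.41 for Cebpb and from 1.48 to 2.78 for Cebpd, and filled points occur without VILI 6 hours replicate 1.

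Leaving out VILI 6 hours replicate 1 gave log2 fold changes at VILI 6 hours of 2.78 ± 0.33 for Cebpd and 1.41 ± 0.27 for Cebpb. At VILI 0 hours the estimates did not move, since that library is in neither group, but their standard errors fell to 0.30 and 0.24. The VILI 6 hours estimates without VILI 6 hours replicate 3, the library highest in both genes there, were 1.48 for Cebpd and 0.96 for Cebpb. In that fit 17 genes were called at VILI 6 hours against control, in place of 136. Without VILI 0 hours replicate 3, the library highest in both genes within its group, the VILI 0 hours estimates were 2.06 for Cebpd and 0.70 for Cebpb, and neither was called. That library also held the highest summed level of cardiac muscle markers, 243.7 FPKM against 85.4 to 125.6 in the other 8 libraries. The part of these markers in the result was not tested.

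Neutrophil markers moved in the same samples. All 9 of 9 (S100a8, S100a9, Csf3r, Cxcr2, Retnlg, Trem1, Il1r2, Mmp9 and Mmp8) were higher than control at both times at an unadjusted P under 0.05, against 6.81% and 8.17% of all genes higher. Of them 6 were called at VILI 0 hours (S100a8, S100a9, Csf3r, Cxcr2, Retnlg and Mmp9) and 7 at VILI 6 hours (the same 6 and Mmp8), against calls in 0.284% and 0.702% of all genes. Their summed level was 49.6 to 57.8 FPKM in control, 572 to 1046 at VILI 0 hours, and 472, 1038 and 2040 in VILI 6 hours replicates 1, 2 and 3; none of the 9 was at 0 in any library. All 9 were again higher at both times without VILI 6 hours replicate 1. S100a9 is a calcium-binding protein abundant in neutrophils. Csf3r, the receptor for the granulocyte growth factor, had the smallest log2 differences of the list (2.34 at VILI 0 hours and 2.07 at VILI 6 hours), and Il1r2, a decoy receptor for IL-1, the largest (5.50 and 5.58). Between the VILI groups none of the 9 passed, and the values ran from -0.35 (Retnlg) to 0.47 (S100a9), whereas 3 were higher and 0 lower there without VILI 6 hours replicate 1, against 8.55% and 13.9% of all genes. The neutrophil sum was lowest among VILI libraries in the same library in which Cebpd was lowest. Its part in the levels of Cebpb and Cebpd was not tested.

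Between the VILI groups neither gene was distinguishable. Cebpd was lower at VILI 6 hours than at VILI 0 hours by a log2 fold change of -0.38 ± 0.58, with a 95% interval of -1.70 to 0.93 and a limma P of 0.529. Without VILI 6 hours replicate 1 the estimate took the opposite sign, 0.40 ± 0.33. Cebpb differed by 0.21 ± 0.28 (interval -0.40 to 0.83, limma P 0.455). These intervals leave room for a difference in either direction.

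Cebpa (ENSMUSG00000034957; chr7:35119293-35121928, plus strand), the family's factor of epithelial and myeloid maturation, was at 40.4, 39.1 and 44.05 FPKM in control. It was at 36.4, 57.6 and 44.1 at VILI 0 hours and at 51.9, 48.2 and 43.1 at VILI 6 hours. The groups overlapped at both times. Log2 fold changes were 0.14 ± 0.16 at VILI 0 hours (interval -0.22 to 0.49, limma P 0.406) and 0.21 ± 0.16 at VILI 6 hours (-0.14 to 0.56, limma P 0.213), so a change of up to 1.47-fold was within the interval. The exact permutation p was 0.6 and 0.2. The VILI 6 hours value was 0.15 ± 0.17 when its replicate 1 was left out. The table held a pair of rows for Cebpa, one of which stayed under 0.002 FPKM in every library.

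Cebpg (ENSMUSG00000056216; chr7:35046422-35056573, minus strand), which acts through its partners and is best known beside Atf4 in the stress response, had the tightest control group, at 22.01, 22.64 and 22.63 FPKM. Its VILI 0 hours libraries were at 23.5, 31.7 and 33.8, and at VILI 6 hours at 24.6, 25.4 and 23.6. No VILI library fell into the control range, but the margins were small for VILI 0 hours replicate 1 and for all of VILI 6 hours. The log2 fold change was 0.39 ± 0.13 at VILI 0 hours (interval 0.09 to 0.68, limma P 0.0156, adjusted p 0.200) and 0.13 ± 0.13 at VILI 6 hours (-0.17 to 0.42, limma P 0.359, adjusted p 0.596), and 0.12 ± 0.15 without VILI 6 hours replicate 1. The exact permutation p was 0.1 at each time. From VILI 0 hours to VILI 6 hours it differed by -0.26 ± 0.13 (limma P 0.0776, adjusted p 0.547), and the VILI groups overlapped.

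Both deposited rows of Cebpg carried signal. The main row was at 20.02 to 21.7 FPKM in control, 22.3 to 31.3 at VILI 0 hours and 20.5 to 23.5 at VILI 6 hours. The minor row ran from 0.89 to 3.07 FPKM over the 9 libraries. With the main row alone the VILI 6 hours range overlapped the control range, so the separation at 6 hours rested on the sum.

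Cebpe (ENSMUSG00000052435; chr14:54710360-54712174, minus strand), the granule-gene factor of maturing granulocytes, was listed at 0, 0.081 and 0 FPKM in control. It was listed at 0.136, 0.176 and 0.055 at VILI 0 hours and at 0.032, 0.040 and 0.244 at VILI 6 hours. The groups overlapped, and the exact permutation p was 0.2 at VILI 0 hours and 0.5 at VILI 6 hours against control and 0.8 between the VILI groups. With a mean of 0.085 over the 9 libraries Cebpe was under the minimum mean of 0.1 FPKM and entered no limma test, so 5 of the 6 members were tested.

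Cebpz (ENSMUSG00000024081; chr17:78919006-78937066, minus strand) varied least. Its libraries were at 12.0, 12.2 and 12.7 FPKM in control, at 12.4, 10.95 and 13.6 at VILI 0 hours, and at 13.95, 11.6 and 12.7 at VILI 6 hours. The groups overlapped at both times. Log2 fold changes were -0.01 ± 0.12 (interval -0.27 to 0.25) and 0.05 ± 0.12 (-0.21 to 0.31). With the deposited scaling these intervals run from 0.832-fold to 1.24-fold. After centring each library on its median the estimates were 0.11 and 0.17.

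**Figure D3:**
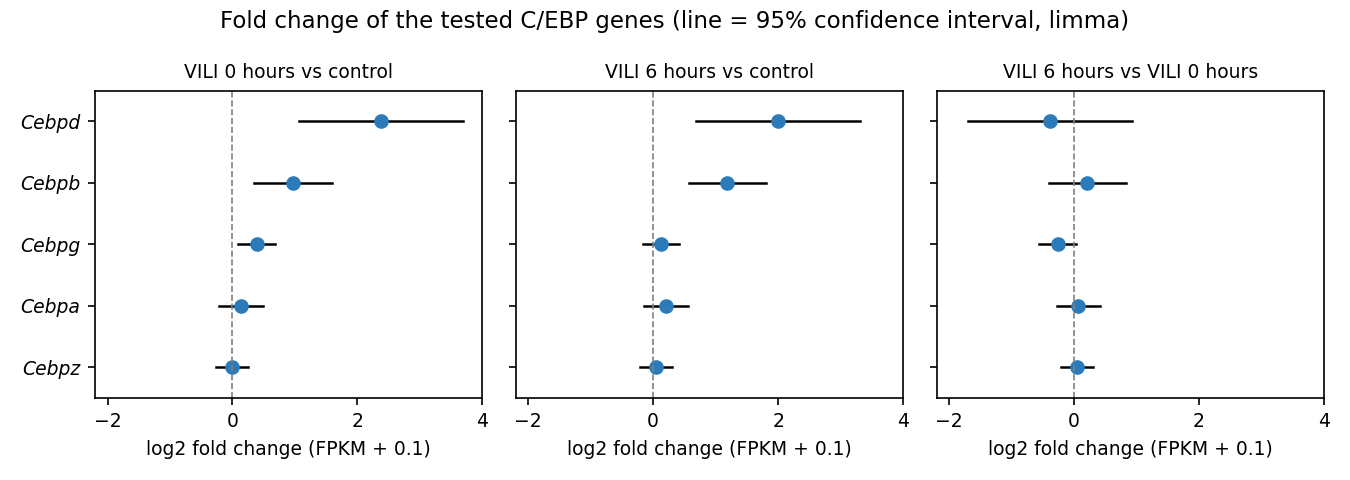
Log2 fold change (horizontal axis, FPKM + 0.1) of the 5 tested members in each comparison, with lines for the 95% confidence interval. Intervals lie above 0 for Cebpd, Cebpb and Cebpg at VILI 0 hours against control and for Cebpd and Cebpb at VILI 6 hours, and all 5 cross 0 between the VILI groups.

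All members but Cebpe overlap another annotated gene, and the strandedness of the libraries was described differently by the sample records and the study's methods, so reads of opposite-strand partners may not be separable. Tmem189, which overlaps Cebpb on the minus strand, averaged 19.2 FPKM in control, 21.8 at VILI 0 hours and 22.6 at VILI 6 hours, and Spidr, which overlaps Cebpd, averaged 6.43, 6.57 and 6.84. Both differed from control by far less than Cebpb and Cebpd did. Cebpzos, opposite Cebpz, averaged 9.95, 8.49 and 8.0, and Gm44836, within an intron of Cebpg on its own strand, 2.66, 3.56 and 5.34. Gm45091 overlaps Cebpa, and Gm45094 and Gm45095 overlap Cebpg; these were not analysed here.

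The order of the members by level changed between the groups. In control, Cebpa (41.2 FPKM) and Cebpb (40.4) had overlapping ranges and stood above Cebpg (22.4), followed by Cebpz (12.3) and Cebpd (11.2), which also overlapped. At VILI 0 hours Cebpb (83.0) and Cebpd (60.7) came first with overlapping ranges, and both overlapped with Cebpa (46.0). Cebpg (29.7) and Cebpz (12.3) followed, each separate from the gene above it. At VILI 6 hours the order was the same, Cebpb (94.9), Cebpd (56.0), Cebpa (47.7), Cebpg (24.5) and Cebpz (12.8), and Cebpd overlapped with Cebpb, Cebpa, Cebpg and nearly reached down to Cebpz because of replicate 1.

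The make-up of the bZIP members was described as each gene's share of their summed FPKM, a measure chosen after the values had been seen. The sum of the 5 genes was 115.2 ± 4.43 FPKM in control (SD, n = 3), 219.6 ± 64.6 at VILI 0 hours and 223.2 ± 61.8 at VILI 6 hours. The share of Cebpa went from 35.7% ± 1.09 in control to 21.7% ± 5.47 and 23.0% ± 8.89, and that of Cebpg from 19.5% ± 0.60 to 13.9% ± 1.72 and 11.6% ± 3.61. Shares of 1 total are bound to one another, so a gene whose level held steady loses share when another gains.

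The share of Cebpd was 7.94%, 8.79% and 12.2% in the control libraries, 25.7%, 24.0% and 31.6% at VILI 0 hours, and 9.38%, 27.6% and 31.9% at VILI 6 hours. Cebpb held 35.1% ± 2.40, 37.3% ± 3.14 and 42.4% ± 2.01 in the 3 groups. The ratio of Cebpb to Cebpa was 0.98 ± 0.09 in control, 1.83 ± 0.69 at VILI 0 hours and 2.04 ± 0.81 at VILI 6 hours, with no overlap with control at either time (exact permutation p = 0.1, the smallest possible). The ratio of Cebpd to Cebpb was 0.218 to 0.378 in control and 0.673 to 0.772 in all VILI libraries but VILI 6 hours replicate 1, in which it was 0.222 and so within the control range. That library thus had the higher Cebpb of the VILI groups together with a Cebpd share like that of control.

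**Figure D4:**
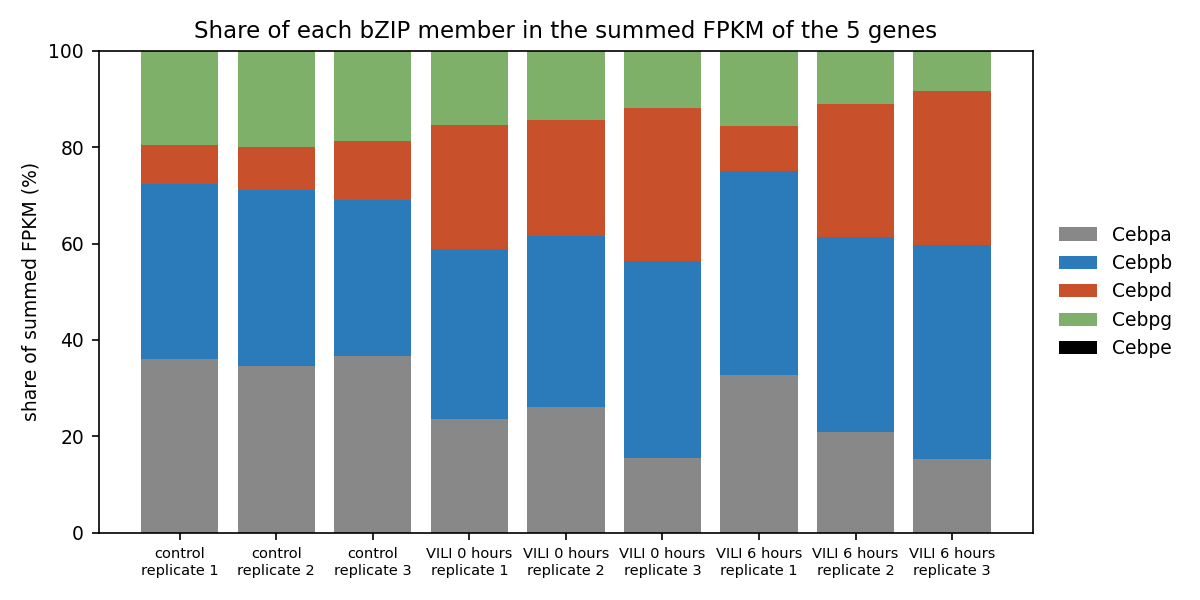
Share of each bZIP member (percent, vertical axis from 0 to 100) in the summed FPKM of Cebpa, Cebpb, Cebpd, Cebpg and Cebpe in each library; Cebpe, at most 0.088%, is too small to see. Cebpd takes 7.94% to 12.2% in control and 24.0% to 31.9% in the VILI libraries other than VILI 6 hours replicate 1, where it takes 9.38%.

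Genes that form dimers with C/EBPs or share their stress signals, the bZIP partners, were more often higher than lower. Of 12 tested, 5 were higher and 0 lower at VILI 0 hours at an unadjusted P under 0.05, against 6.81% higher and 9.35% lower of all genes. Among the VILI 6 hours differences 6 were higher and 1 lower, against 8.17% and 12.2%, and none of the 12 was called in any comparison. The counts against control were the same when VILI 6 hours replicate 1 was left out, and 1 was higher and 2 lower between the VILI groups. With all libraries, the values between the VILI groups ran from -0.31 (Jun) to 0.52 (Jund), and neither passed. Nfil3, a bZIP repressor, had the largest difference at both times, 2.09 ± 0.40 (limma adjusted p 0.0657) and 2.02 ± 0.40 (0.0587). It was at 1.99 to 2.90 FPKM in control, 5.81 to 16.5 at VILI 0 hours and 7.68 to 16.4 at VILI 6 hours. The lowest were Batf2 at VILI 0 hours (-0.51, limma P 0.0979) and Ddit3, the stress-induced CHOP, at VILI 6 hours (-0.44 ± 0.18, limma P 0.0342, adjusted p 0.213). Ddit3 was at 13.2, 11.7 and 11.8 FPKM in control, 10.3, 11.3 and 9.997 at VILI 0 hours, and 12.1, 7.12 and 8.41 at VILI 6 hours. The median log2 fold change of the list was 0.32 and 0.43 at the 2 times, against -0.07 and -0.09 over all genes tested.

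Regulators of C/EBP protein, such as the Tribbles pseudokinases that direct C/EBPs to degradation with Cop1, showed small differences. At VILI 0 hours 2 of 9 were higher (Trib1 0.56 and Trib3 0.50) and 1 lower (Gsk3b -0.21) at an unadjusted P under 0.05, against 6.81% and 9.35% of all genes. Later, at VILI 6 hours, Trib1 (0.77) was higher and Mapk3 (-0.32) lower, counts near the 8.17% and 12.2% of all genes, and between the VILI groups 0 passed (Celf1 -0.19 to Trib1 0.21). Without VILI 6 hours replicate 1 there were 4 higher and 1 lower at VILI 0 hours and 3 higher and 1 lower at VILI 6 hours, and 2 higher and 1 lower between the VILI groups. Celf1, an RNA-binding protein that acts on Cebpb translation, had the largest fitted value at both times (2.03 and 1.84, with an SE of 1.38) because it was listed at 0 in control replicate 1 and at 7.01 and 8.36 FPKM in the other control libraries.

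In the upstream cytokine and hormone route, at VILI 0 hours 3 of 13 genes were higher than control (Il1b 3.14, Osm 2.63 and the IL-6 receptor gene Il6ra 1.09) and 2 lower (the glucocorticoid receptor gene Nr3c1 -0.55 and Creb1 -0.98), all at an unadjusted P under 0.05, against 6.81% and 9.35% of all genes. The VILI 6 hours differences were higher in 8 and lower in Nr3c1 (-0.61 ± 0.17, limma P 0.00527, adjusted p 0.115), against 8.17% and 12.2%. Set directly against VILI 0 hours, at VILI 6 hours 7 of 13 were higher and 0 lower, against 5.06% and 4.94% of all genes, and none was called. Without VILI 6 hours replicate 1 these counts were 4 and 2 at VILI 0 hours, 8 and 1 at VILI 6 hours, and 6 and 0 between the VILI groups. The lowest log2 fold change at VILI 0 hours was that of Lif, a cytokine of the IL-6 family (-1.27 ± 0.58, limma P 0.0554), which was at 0.945 to 1.61 FPKM in control, 0.308 to 0.748 at VILI 0 hours and 0.408 to 2.86 at VILI 6 hours. Csf3, the granulocyte growth factor, was listed at 0 in all control libraries and at 0, 1.17 and 17.7 FPKM in VILI 6 hours replicates 1, 2 and 3. Il6 was at 0.306, 1.58 and 19.3 FPKM in the same libraries and at 0.096 to 0.386 at VILI 0 hours, while Il1b was at 14.0 to 83.4 FPKM at VILI 6 hours and 19.7 to 82.7 at VILI 0 hours. Il1b had the lowest value of the list between the VILI groups (-0.26, limma P 0.699).

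Among acute-phase and inflammatory genes known as targets of Cebpb and Cebpd, 0 of 14 tested passed at VILI 0 hours (unadjusted P under 0.05), while 16.2% of all genes did, and the list's median log2 fold change was -0.08. The values there ran from -0.91 (Ptx3, limma P 0.372, with all VILI 0 hours libraries below control) to 0.94 (Orm1, limma P 0.202). At VILI 6 hours 9 were higher and 0 lower than control, against 8.17% and 12.2% of all genes, with a median of 2.31, and 1 was called, the complement gene C3. From VILI 0 hours to VILI 6 hours 8 were higher and 0 lower, against 5.06% and 4.94%, with a median of 2.24. Without VILI 6 hours replicate 1 the counts of higher genes were 1, 11 and 9, in a fit in which 23.2%, 38.8% and 22.4% of all genes passed in either direction.

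Among these genes Saa3, a serum amyloid A gene, had the largest difference at VILI 6 hours against control, 5.65 ± 1.14 (limma P 0.00067, adjusted p 0.0614). It was at 0.92 to 2.83 FPKM in control, at 0.92 to 6.83 at VILI 0 hours, and at 16.5, 58.3 and 460.3 in VILI 6 hours replicates 1, 2 and 3. C3 was at 127.0 to 144.0 FPKM in control, 146.2 to 167.2 at VILI 0 hours and 198.5 to 229.6 at VILI 6 hours, with no overlap between any of the groups. Nos2 was lowest in the list at VILI 6 hours (-0.32, limma P 0.175). Between the VILI groups the values ran from -0.22 (Nos2, limma P 0.334) to 5.29 (Saa3, limma P 0.00105, adjusted p 0.206). Lcn2, an iron-scavenging protein of granulocytes and epithelium, was at 55.4 to 80.2 FPKM in control, 95.4 to 143.0 at VILI 0 hours, and 151.7, 182.0 and 880.9 at VILI 6 hours. It did not overlap with control at either time, with a log2 fold change of 0.81 ± 0.55 (limma P 0.174) at VILI 0 hours and 2.18 ± 0.55 (limma P 0.00311, adjusted p 0.0978) at VILI 6 hours.

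Granule genes known as targets of Cebpe were higher than control in part, while Cebpe itself was near 0. Of 9 tested out of 12, 4 were higher at VILI 0 hours and 5 at VILI 6 hours at an unadjusted P under 0.05, and 0 were lower, against 6.81% and 8.17% of all genes higher. With VILI 6 hours replicate 1 omitted the counts were 5 and 6, and between the VILI groups 2 were higher and 1 lower, in place of 0 and 0. The called genes were Mmp9 at both times and Mmp8 at VILI 6 hours, proteases of neutrophil granules that also count among the 9 neutrophil markers above. Mmp8 was at 0.81 to 1.29 FPKM in control, 9.27 to 38.7 at VILI 0 hours and 7.56 to 53.0 at VILI 6 hours, the highest log2 fold changes of the list (4.48 and 4.55). The lowest, among genes with a mean of at least 1 FPKM, were those of Itgb2, a leukocyte integrin subunit (0.41, limma P 0.0349, and 0.68, limma P 0.00231), and between the VILI groups the values ran from 0.00 (Chil3) to 1.53 (Ngp, limma P 0.309). Ngp, a granule gene of later precursors, was at 0.49 to 1.14 FPKM in control, 3.96 to 5.14 at VILI 0 hours, and 0.68, 24.7 and 118.3 in VILI 6 hours replicates 1, 2 and 3. Camp, a granule peptide, was at 0 to 0.55 FPKM in control, 0.52 to 1.08 at VILI 0 hours and 0.105 to 17.1 at VILI 6 hours. Of the genes of early granulocyte precursors, Prtn3 was at 0.31 to 0.99 FPKM over the 9 libraries, and Elane and Mpo stayed at or under 0.112 and 0.190.

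Epithelial genes known as targets of Cebpa, which include the surfactant protein genes, were close to control. Of 10 tested, Sftpa1 (0.28, limma P 0.0253) was higher at VILI 0 hours at an unadjusted P under 0.05, against 6.81% of all genes, and 0 of 10 passed at VILI 6 hours, against 20.4% of all genes in either direction, or between the VILI groups. The list's median was 0.16 and 0.07 against control. In Sftpa1, Sftpd, Abca3, Fasn and Scgb1a1 all VILI 0 hours libraries lay above all control libraries, as in 12.0% of all genes tested. The other genes of the list overlapped with control at that time. Values ran from -0.11 (Lpcat1) to 0.34 (Fasn) at VILI 0 hours, from -0.15 (Sftpc) to 0.27 (Sftpd) at VILI 6 hours and from -0.21 (Cyp2f2) to 0.02 (Lpcat1) between the VILI groups. Without VILI 6 hours replicate 1, 4 were higher at VILI 0 hours, against 8.98% of all genes in that fit. At VILI 6 hours 1 was then higher and 2 lower, against 12.8% and 26.0% of all genes. Between the VILI groups 0 were higher and 3 lower, against 8.55% and 13.9%.

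**Figure D5:**
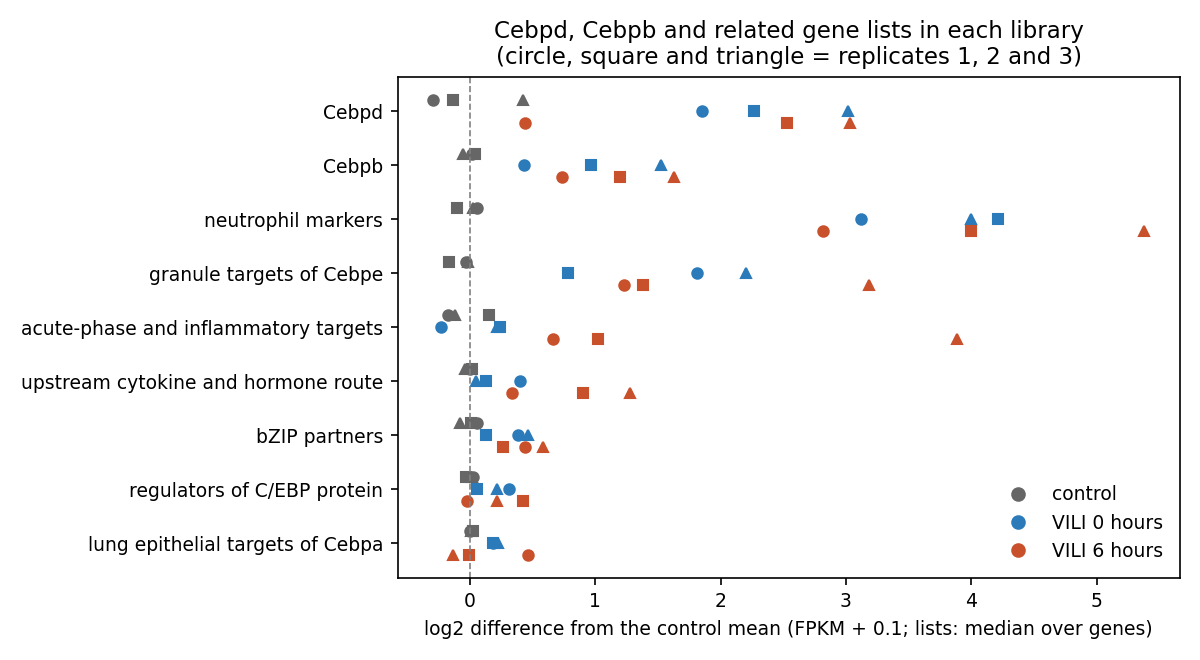
Log2 difference from the control mean (horizontal axis, FPKM + 0.1) in each library for Cebpd, Cebpb and 7 gene lists (median over the tested genes of a list), with circle, square and triangle for replicates 1, 2 and 3 and grey for control, blue for VILI 0 hours and red for VILI 6 hours. The acute-phase list stays between -0.23 and 0.24 at VILI 0 hours and reaches 0.66, 1.02 and 3.89 at VILI 6 hours, whereas Cebpd and the neutrophil markers are above control at both times.

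The genes with profiles most like those of the members were named by Pearson r on log2(FPKM + 0.1) over the 9 libraries, among 9616 genes with a mean of at least 5 FPKM. These values are descriptive, because the libraries fall into 3 groups and share their normalisation. For Cebpb they were Junb (0.986), a bZIP factor of the AP-1 complex, Fbxl5 (0.980) and Nuak2 (0.972). For Cebpd they were Akr1c14 (0.993), the lipoprotein lipase gene Lpl (0.989) and the survival factor Mcl1 (0.988). Akr1c14 averaged 29.4, 77.2 and 77.9 FPKM in the 3 groups, and Junb 23.8, 63.2 and 75.4.

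Among the members themselves the closest pair was Cebpb with Cebpd (0.907). Cebpg followed Cebpd at 0.639 and Cebpb at 0.627, Cebpa followed Cebpg at 0.550, and Cebpz was between -0.20 and 0.12 with each of the others. For Cebpg the closest genes were Cdkn1c (0.959), Hc (0.946) and Ubxn6 (0.931). For Cebpa they were Atg3 (0.904), Vps29 (0.902) and Ccr2 (0.894), and for Cebpz Egr1 (0.873), Leo1 (0.842) and Acaca (0.829).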

How the data were processed

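Total lung RNA was depleted of ribosomal RNA and sequenced from 9 mice, 3 per group, grouped by the treatment in the sample labels. Per the submitters' processing notes the reads were aligned to GRCm38 with TopHat2 (2.0.9) and Bowtie2 (2.0.6), and the authors deposited FPKM values from Cuffdiff (2.1.1) for 60108 transcript rows, after assembly with Scripture and Cufflinks. How the libraries were scaled to one another is not given in the sources used here. The study lists the reads of each library, but FPKM holds no read counts per gene, so no counting interval is given.

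Rows were summed per gene ID, and 23580 of 23713 Ensembl IDs were named by GENCODE M21. Genes with a mean of at least 0.1 FPKM (19378) were tested on log2(FPKM + 0.1) with limma (3.58.1, R 4.3.3; eBayes with trend, all 9 libraries in 1 fit), with Benjamini-Hochberg adjustment over all genes in each of 3 comparisons. The fold change understates that of low genes. Single genes were also tested by exact permutation. The fit was tested on simulated data. Named genes were the members, Ddit3, the genes with the highest and lowest fold change (mean of at least 1 FPKM) and all called genes of 15 lists, and the 3 genes most like each member; other list genes and overlapping genes named were chosen after their values were seen. Members and lists were chosen with earlier results of these data known. The alternatives were other pseudocounts, filters, scaling, moderation and row choice, pairwise fits, a replicate block and leaving out each library. Leaving libraries out of the shares and ratios was added after seeing the data.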

Additional observations from a re-analysis of the deposited data

How the results depend on the processing

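In the fit of the 6 libraries compared, Cebpd was called at VILI 0 hours (log2 fold change 2.38, adjusted p 0.00824), which made 1 member called in place of 0, and 1597 genes were called in place of 55. Centring each library on its median shifted every fold change by 0.115 at VILI 0 hours and 0.127 at VILI 6 hours against control, turned Cebpz at VILI 0 hours to 0.11 and moved the higher share of genes at an unadjusted P under 0.05 from 42.1% to 61.2% and from 40.1% to 58.1%; Cebpb and Cebpd were then 1.08 and 2.495 at VILI 0 hours and 1.31 and 2.13 at VILI 6 hours. Over these and the other settings apart from leaving out libraries, 1 to 1597 genes were called at VILI 0 hours, 20 to 149 at VILI 6 hours and 0 to 2 between the VILI groups, and adjusted p ran from 0.0532 to 0.197 (Cebpb) and 0.00824 to 0.155 (Cebpd) at VILI 0 hours and from 0.0782 to 0.132 and 0.0891 to 0.212 at VILI 6 hours. Replicate numbers did not pair the samples (correlation of deviations of same-numbered libraries -0.221 to 0.0175); with a replicate block 10, 43 and 0 genes were called and 0 members, at log2 fold changes equal to those reported.

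Leaving out each library in turn gave, at VILI 0 hours against control, -0.0384 to 0.29 for Cebpa, 0.70 to 1.24 for Cebpb, 2.06 to 2.65 for Cebpd and -0.0783 to 0.0759 for Cebpz, with 0 to 2 members called. At VILI 6 hours against control it gave 0.96 to 1.41 for Cebpb, 1.48 to 2.78 for Cebpd and -0.0188 to 0.11 for Cebpz, with 0 to 2 members called. Between the VILI groups it gave -0.0832 to 0.25 for Cebpa, -0.0569 to 0.49 for Cebpb, -0.90 to 0.40 for Cebpd and -0.02905 to 0.13 for Cebpz, with 0 to 1 members at an unadjusted P under 0.05; the 1 was Cebpg (-0.42) without VILI 0 hours replicate 1. The 3 members at an unadjusted P under 0.05 at VILI 0 hours were 2 without VILI 0 hours replicate 2 or 3, when Cebpg was at 0.33 and 0.28 (highest limma P 0.0682), and the 2 at VILI 6 hours were 3 with centred libraries (Cebpa 0.34, limma P 0.0345). The mean share of Cebpd was 24.8% to 28.6% at VILI 0 hours and 18.5% to 29.8% at VILI 6 hours, and the mean ratio of Cebpb to Cebpa 1.43 to 2.06 and 1.61 to 2.41. Calls of members appeared when VILI 6 hours replicate 1 was left out, and the cause was not tested. With 3 mice per group and no read counts per gene, a missed threshold does not show that a gene was unchanged.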

Other observations

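Marker lists of other cell types held genes that moved beside the C/EBP genes. Alveolar macrophage markers were higher in 3 of 6 at VILI 0 hours (Siglecf 0.98, Krt79 0.76 and Mrc1 0.46) and in 1 of 6 at VILI 6 hours (Mrc1 0.45), with Fabp1 lower at VILI 6 hours (-0.99), all at an unadjusted P under 0.05. Over all genes 6.81% were higher and 9.35% lower at VILI 0 hours and 8.17% and 12.2% at VILI 6 hours, and with lists of 3 to 6 genes a count of 0 or 1 is near these shares. Marco had the lowest value at VILI 0 hours (0.02) and Chil3 the highest at VILI 6 hours (0.74, limma P 0.0944). The markers' summed level was 164.2 to 220.8 FPKM in control, 256.2 to 349.1 at VILI 0 hours, and 563.1, 180.4 and 275.4 in VILI 6 hours replicates 1, 2 and 3. In replicate 1 most of that sum was Chil3, at 527.9 FPKM. Their part in the levels of the C/EBP genes was not tested.

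Of the endothelial markers, Tie1 was lower at VILI 6 hours (-0.58) at an unadjusted P under 0.05. Among fibroblast markers Dcn passed as higher at VILI 0 hours (0.39). Col1a2 passed as lower at VILI 0 hours (-0.39) and VILI 6 hours (-0.34). Lamp3 was the single alveolar type 2 marker that passed that threshold as lower at VILI 6 hours (-0.31). Of the adipocyte markers Cidec was higher at VILI 0 hours (0.52) and Adipoq lower at VILI 6 hours (-0.52). None of 3 club cell markers and none of 5 cardiac muscle markers passed an unadjusted P under 0.05 against control by limma, where 16.2% of all genes passed at VILI 0 hours and 20.4% at VILI 6 hours in either direction. Among the other genes highest or lowest in their lists, none of which passed, the log2 fold changes at VILI 0 hours and VILI 6 hours were -0.66 and -0.66 for Kdr, 0.26 at VILI 0 hours for Cdh5 and 0.32 at VILI 6 hours for Cldn5 (endothelial), and -0.44 and -0.38 for Etv5 (alveolar type 2). They were 0.26 and 0.16 for Scgb1a1 and -0.07 and -0.25 for Scgb3a2 (club), 0.63 and -0.31 for Nppa, 0.20 at VILI 0 hours for Myl7 and 0.08 at VILI 6 hours for Myh6 (cardiac muscle), -0.09 at VILI 0 hours for Plin1 (adipocyte) and 0.38 at VILI 6 hours for Pdgfra (fibroblast). Between the VILI groups 2 of 6 alveolar macrophage, 2 of 5 adipocyte and 1 of 5 endothelial markers were lower at an unadjusted P under 0.05. So were 1 of 4 fibroblast and 1 of 3 tested eosinophil markers, against 4.94% of all genes lower. No alveolar type 2, club or cardiac muscle marker passed there, and none of these lists held a gene that passed as higher. The lowest in their lists, among genes with a mean of at least 1 FPKM, were Fabp1 (-1.38), Nppa (-0.94), Adipoq (-0.77), Siglecf (-0.65), Dcn (-0.55), Tie1 (-0.42), Lamp3 (-0.22) and Cyp2f2 (-0.21). Of these, chosen for being lowest, Fabp1, Adipoq, Siglecf, Dcn and Tie1 passed. The highest were Pdgfra (0.36), Marco (0.21), Cldn5 (0.16), Etv5 (0.06), Scgb1a1 (-0.10), Myh6 (-0.34) and Plin1 (-0.43), and Siglecf was the single eosinophil marker with such a mean. The eosinophil granule gene Epx was listed at 0 in all 9 libraries, and Prg2, another granule gene, reached 0.155 FPKM at most in control and 0.031 to 0.379 in the VILI libraries, all above control at VILI 6 hours (1.13, limma P 0.0743). Siglecf, which eosinophils share with alveolar macrophages, was higher at VILI 0 hours, as given above. Il5ra, the receptor of the eosinophil growth factor, was lower at VILI 0 hours (-1.02) and VILI 6 hours (-1.39). None of the genes in these lists was called. The counts higher and lower at VILI 6 hours, with its replicate 1 left out, were 2 and 1 for alveolar macrophage markers, 3 and 2 for endothelial, 1 and 0 for fibroblast, 0 and 2 for alveolar type 2, club and adipocyte, 0 and 0 for cardiac muscle and 0 and 1 for eosinophil markers, against 12.8% higher and 26.0% lower of all genes.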
